A study of Mus musculus with 17 samples.

Results

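The genes described here are 10 antagonists and feedback genes of WNT signaling, chosen by name and followed through all 17 single-cell RNA sequencing libraries of the series. They are Dkk2, Dkk3, Sfrp1, Sfrp2, Sfrp4, Frzb, Wif1, Apcdd1, Sostdc1 and Axin2, and they are 10 of the 30406 genes that all libraries list. Each was measured in counts of unique molecular identifiers (UMIs), scaled to the total of the library or class (CPM), over all cells of a library and within cell classes gated on marker genes.

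WNT ligands are secreted glycoproteins that bind Frizzled receptors and the LRP5 and LRP6 co-receptors, which keeps beta-catenin from being degraded and lets it act with TCF and LEF factors on target genes. Antagonists hold this signal back at different steps: Dickkopf proteins and sclerostin-domain proteins occupy the LRP co-receptors, secreted Frizzled-related proteins and WIF1 bind the ligands, APCDD1 acts at the membrane of the receiving cell, and AXIN2 is induced by the pathway and returns beta-catenin to its degradation complex. In skin this signaling is known for hair follicle growth and for dermal fibroblast activation, and in kidney for tubule development and the response to injury.

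SARA (gene Zfyve9) was first described as an adaptor of TGF-beta receptors, and the series compares PDGFRB-lineage cells of mice with and without its overexpression in models of skin and kidney fibrosis. All mice were 8 weeks old and carried PDGFRb-Cre with the Z/EG reporter, controls included, and GFP-positive cells were sorted from the digested tissue. SARAWT mice carried no SARA transgene, while in SARATg mice Cre switched it on in the cells of the PDGFRb-Cre lineage, which by the study's own account include leukocytes. In skin, SARAWT mice received subcutaneous PBS (3 libraries) or subcutaneous bleomycin at 20 mg/kg, 3 times a week for 2 weeks (3 libraries), and SARATg mice received PBS (1 library) or the same bleomycin course (1 library). This bleomycin schedule is that of the labels, whereas the study's methods describe daily injections. In kidney, SARAWT mice received vehicle (3 libraries) or intraperitoneal aristolochic acid (AA) at 5 mg/kg, 3 times a week for 3 weeks (3 libraries), and SARATg mice received vehicle (2 libraries) or the same AA course (1 library). No label says that the libraries of a group came from separate mice, so the p-values measure the spread between libraries, which may be technical.

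The libraries held 3355217 to 69765525 UMIs in skin and 28660151 to 137093834 UMIs in kidney, and the smallest, labelled SARAWT PBS 2, had 845 barcodes. Most sorted cells were leukocytes or kidney tubule cells, and Pdgfrb itself reached 7.08 to 59.6 CPM over skin cells and 0.187 to 3.00 CPM over kidney cells. Zfyve9 went against the label of 3 libraries: it had 621 CPM in the library labelled SARAWT PBS 3 and 167 CPM in the library labelled SARAWT AA 1, against 7.75 to 31.8 CPM in the other SARAWT libraries, and 20.7 CPM in the library labelled SARATg AA 1, against 91.7 to 314 CPM in the other SARATg libraries. A human ZFYVE9 entry, listed for 4 skin libraries only, had 845 CPM in the library labelled SARAWT PBS 1 and 89.3 to 190 CPM in the other 3 of them. Those 4 libraries are labelled SARAWT PBS 1 and 2 and SARAWT bleomycin 1 and 2. They also share a longer gene list, high Xist and 7.38% to 55.5% of their cell barcodes, against at most 0.824% in the other skin libraries. The Y-linked gene Ddx3y had at most 0.138 CPM in them and 61.7 to 97.8 CPM in the other skin libraries, the levels of female and male cells. In kidney it had at most 0.0333 CPM in the libraries labelled SARAWT vehicle 2 and SARATg AA 1 and 53.1 to 56.1 CPM in the others. Fitted changes of the members in skin are given with all libraries and without those labelled PBS 1 and 3, and those after AA in kidney with and without the library labelled AA 1.

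The 10 stromal markers summed to 27585 CPM on average in the 2749 skin stromal cells, where no other list of markers exceeded 325 CPM on average. Among these cells 6.0% had exactly the 3 markers that the gate asks for. Other classes were less clean: distal convoluted tubule cells had 6303 CPM of thick ascending limb markers beside 14201 CPM of their own, and Schwann cells had 3866 CPM of stromal markers beside 11434 CPM of their own. No member gene was used in the gate.

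The promoters of the members are shown first, since the pathway acts on its targets through TCF and LEF factors. RefSeq promoter entries on GRCm38.p6 were matched for 5 of the 10 members (Dkk2, Sfrp2, Frzb, Wif1 and Axin2), and those of the feedback gene Axin2 and of the antagonists Wif1 and Dkk2 are printed below, cut where the gene's annotated transcript begins. Capitals mark GC boxes (GGGCGG or its reverse CCGCCC) and TATA boxes (TATAAA or its reverse TTTATA). The coordinates are chr11:108920099-108920348, forward strand, for Axin2, chr10:121033754-121033959, forward strand, for Wif1 and chr3:132085042-132085291, forward strand, for Dkk2.
Axin2: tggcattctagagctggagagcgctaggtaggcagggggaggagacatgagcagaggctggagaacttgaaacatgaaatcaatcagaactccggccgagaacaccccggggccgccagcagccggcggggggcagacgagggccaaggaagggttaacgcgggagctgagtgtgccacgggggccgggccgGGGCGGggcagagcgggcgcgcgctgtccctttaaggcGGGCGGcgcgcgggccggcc
Wif1: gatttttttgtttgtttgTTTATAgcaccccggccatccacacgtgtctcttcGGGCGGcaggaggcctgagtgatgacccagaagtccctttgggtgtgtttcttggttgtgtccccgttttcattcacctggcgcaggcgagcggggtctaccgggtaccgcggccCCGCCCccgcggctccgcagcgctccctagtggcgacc
Dkk2: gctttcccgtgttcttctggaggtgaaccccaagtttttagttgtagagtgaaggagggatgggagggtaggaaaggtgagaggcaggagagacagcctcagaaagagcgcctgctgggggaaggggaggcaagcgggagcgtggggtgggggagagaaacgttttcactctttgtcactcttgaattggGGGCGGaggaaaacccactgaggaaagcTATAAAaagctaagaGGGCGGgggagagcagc
The TCF/LEF core, searched as CTTTG followed by AA, AT, TA or TT on both strands of the 250 bases before each RefSeq start, was found in none of the 5 members and in 14.8% of 32851 promoters. GC boxes stood at 2 places each in Axin2, Wif1 and Dkk2 and at 1 in Frzb, and 32.7% of all promoters held at least 1. Dkk2 had a TATA box 32 bases before its start and Wif1 had 1 at 232 bases, against 12.4% of all promoters with such letters. These matches are letters in a window and not sites of binding, and no match says only that the letters are not in this window.

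Each member had its own set of cell classes, and 8 of the 10 took more UMIs from skin stromal cells than from any other skin class. Of all skin UMIs of Sfrp4, 94.7% lay in stromal cells, as did 89.9% of Sfrp2, 83.7% of Dkk2, 82.8% of Apcdd1, 71.9% of Wif1, 67.7% of Dkk3, 64.5% of Frzb and 54.2% of Sfrp1. Axin2 was spread differently, with 42.4% of its skin UMIs in leukocytes, the most numerous cells. These shares are pooled over all 8 libraries. Cells that the gate left unassigned held 32.2% of the Sostdc1, 28.7% of the Sfrp1 and 24.2% of the Wif1 UMIs of skin. For Sfrp1 the libraries differed, since each of the 4 bleomycin libraries had more of its UMIs in unassigned than in stromal cells (412 against 130, 210 against 77, 618 against 107 and, in SARATg, 713 against 375). In kidney Sfrp1 and Sostdc1 lay mostly in tubule segments. The distal convoluted tubule held 49.7% of the Sfrp1 UMIs and the thick ascending limb a further 22.5%. The thick ascending limb held 46.6% of the Sostdc1 UMIs and the distal convoluted tubule a further 21.3%. Sfrp2 UMIs lay in stromal (35.0%), mural (19.1%) and unassigned cells (38.6%). Frzb UMIs lay in the proximal tubule (88.1%) and Axin2 UMIs in leukocytes (82.8%). Of the 2956 Frzb UMIs in the proximal tubule, the library labelled SARAWT vehicle 1 alone gave 2245. Dkk2 UMIs lay to 40.1% in endothelial cells, or 27.3% without the library labelled SARATg vehicle 1, where the proximal tubule held 37.8%. The 9 kidney libraries together held only 46 UMIs of Sfrp4, 19 of Wif1 and 12 of Apcdd1. None of them had the longer gene list. In the 4 skin libraries with the shorter list Apcdd1 was low too, at 2.27 to 14.4 CPM in stromal cells. Tissue and gene list are thus mixed in the Apcdd1 contrast between skin and kidney.

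**Figure D1:**
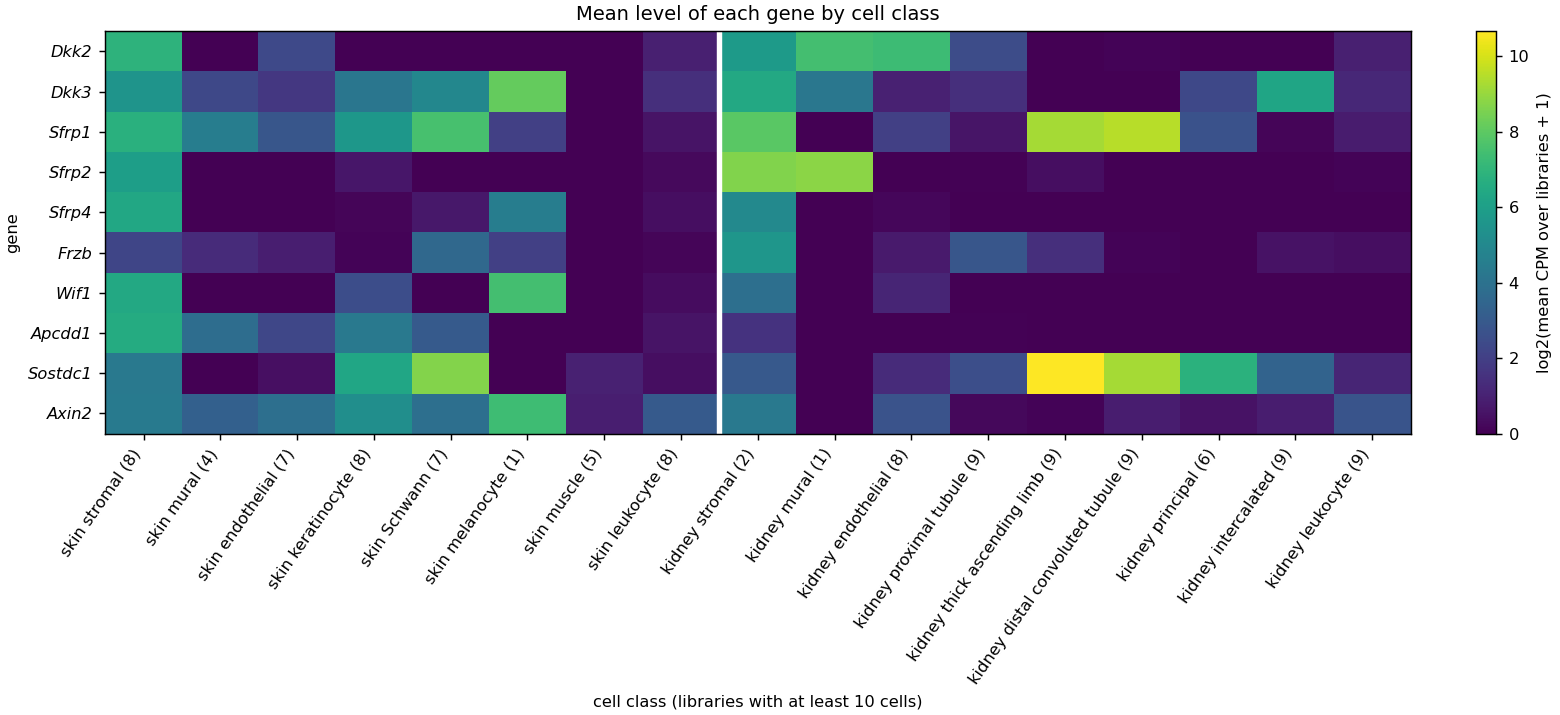
Mean level of each of the 10 genes (rows) in each cell class of skin and kidney (columns), coloured by log2(mean CPM + 1) over the libraries with at least 10 cells of the class, whose number stands in brackets. Sostdc1 was highest in the thick ascending limb and Sfrp1 in the distal convoluted tubule, while Sfrp4 and Apcdd1 were highest in skin stromal cells and Wif1 in the melanocytes of 1 library.

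Sostdc1 (chr12:36314139-36318452, forward strand, GRCm38), which encodes a sclerostin-domain protein that binds LRP5, LRP6 and BMP ligands, was measured in tubule, Schwann and epithelial classes. Its level was 1616 ± 545 CPM (SD, n = 9 libraries) in the thick ascending limb, 596 ± 154 CPM (n = 9) in the distal convoluted tubule and 408 ± 242 CPM (n = 7) in skin Schwann cells. Collecting duct principal cells had 110 ± 54.8 CPM (n = 6), keratinocytes 77.4 ± 55.1 CPM (n = 8) and skin stromal cells 18.7 ± 20.5 CPM (n = 8). Across libraries the thick ascending limb (from 800.4 CPM) and the distal convoluted tubule (up to 836 CPM) overlapped slightly, although the former was higher in each of the 9 libraries, and the distal convoluted tubule and Schwann cells overlapped too.

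Sfrp1 (chr8:23411502-23449632, forward strand) encodes a Frizzled-related protein that binds WNT ligands through its cysteine-rich domain. It reached 721 ± 271 CPM (n = 9) in the distal convoluted tubule and 596 ± 268 CPM (n = 9) in the thick ascending limb, which did not differ beyond their spread. The stromal cells of 2 kidney libraries had 241 ± 255 CPM, from 61.5 to 421 CPM. Schwann cells followed with 186 ± 75.1 CPM (n = 7), skin stromal cells with 107 ± 106 CPM (n = 8) and keratinocytes with 48.2 ± 27.4 CPM (n = 8). Neighbours in this order overlapped as well.

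Dkk2, Sfrp2 and Sfrp4 had their highest levels in stromal, mural or endothelial cells. Dkk2 (chr3:132085292-132180304, forward strand), a Dickkopf ligand of LRP6, had 179 CPM in the mural cells of 1 kidney library. It had 157 ± 45.4 CPM (n = 8) in kidney endothelial cells and 117 ± 67.7 CPM (n = 8) in skin stromal cells, which overlapped. In skin endothelial cells it had 4.07 ± 4.72 CPM (n = 7). The kidney endothelial libraries, from 92.3 to 240 CPM, all stood above the skin endothelial libraries, from 0 to 12.6 CPM. Sfrp2 (chr3:83766321-83774316, forward strand) had 393 ± 111 CPM in the stromal cells of 2 kidney libraries, 447 CPM in the mural cells of 1 kidney library and 61.6 ± 45.4 CPM (n = 8) in skin stromal cells, and at most 0.553 CPM on average in every other class. Sfrp4 (chr13:19623104-19632994, forward strand) had 81.8 ± 89.5 CPM (n = 8) in skin stromal cells and 31.2 ± 34.5 CPM in kidney stromal cells (n = 2), within each other's spread.

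Dkk3 (chr7:112116017-112159057, reverse strand), a divergent Dickkopf family member, was found in several unlike classes: 76.8 ± 58.3 CPM (n = 9) in kidney intercalated cells, 45.0 ± 10.7 CPM (n = 8) in skin stromal cells and 279 CPM in the 20 melanocytes of the library labelled SARAWT PBS 3. Those melanocytes also had 177 CPM of Wif1 and 161 CPM of Axin2, and no other library had 10 melanocytes. The few melanocytes of the other libraries held no Wif1 UMI. Dkk3 was found in each library with melanocytes, and Axin2 in each but SARAWT bleomycin 3. In kidney stromal cells Dkk3 had 85.4 ± 121 CPM (n = 2), from 0 to 171 CPM. Frzb (chr2:80411970-80447625, reverse strand), another Frizzled-related protein, had 47.0 ± 49.5 CPM in kidney stromal cells (n = 2), 11.0 ± 8.47 CPM (n = 7) in Schwann cells and 6.12 ± 5.19 CPM (n = 9) in the proximal tubule, which overlapped. Axin2 (chr11:108920349-108950783, forward strand) had 37.8 ± 10.8 CPM (n = 8) in keratinocytes and 19.6 ± 9.39 CPM (n = 8) in skin stromal cells, and its libraries overlapped between them.

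The share of cells with a UMI was compared with that of leukocytes after thinning each cell to 1000 UMIs. Free RNA shared between droplets was not measured, so its part in these shares was not tested. Sostdc1 was then detected in 66.7% of thick ascending limb cells and 40.0% of distal convoluted tubule cells, averaged over libraries, against 0.0694% of kidney leukocytes. Sfrp1 was detected in 44.2% of distal convoluted tubule cells and 28.6% of thick ascending limb cells against 0.0663%. In skin stromal cells the shares were 9.11% for Dkk2, 7.85% for Sfrp1, 7.83% for Apcdd1, 6.44% for Wif1 and 5.92% for Sfrp4, against 0.0869% or less in skin leukocytes. Without thinning, those stromal shares were 30.1%, 26.9%, 23.2%, 17.1% and 12.6%, at a median of 13255 UMIs per stromal cell and 8416 per leukocyte, averaged over libraries. Axin2 had the least contrast, with 4.03% of keratinocytes and 2.03% of stromal cells against 1.07% of leukocytes.

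The first comparison asked what bleomycin changed in SARAWT skin stromal cells, the class that held most of the members' skin UMIs. Sfrp4 fell, and it was the only 1 of the 9 members tested that passed the threshold: 1 of 9, beside 3.43% of all 10526 genes tested (1.59% lower and 1.84% higher). Frzb did not pass the filter on low counts. Sfrp1 and Sfrp4 were also the members whose bleomycin libraries all lay below all PBS libraries, as did 15.4% of all genes tested, while 15.0% of genes lay above without overlap and no member did. The median log2 change of the 9 members was -0.90, against -0.04 over all genes tested.

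**Figure D2:**
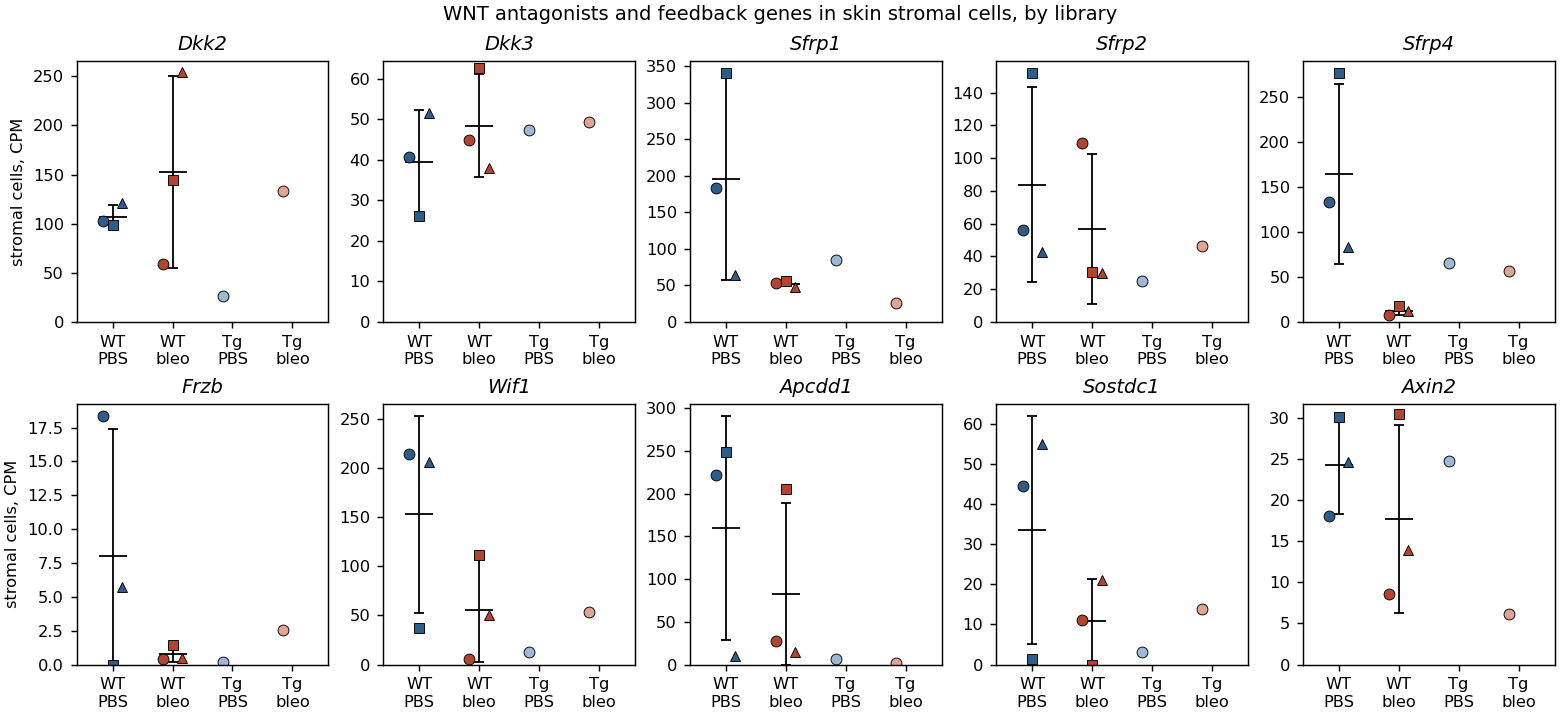
CPM of each of the 10 genes in skin stromal cells (vertical axes, CPM) by group (horizontal axis), with 1 point per library (circle, square and triangle for replicates 1, 2 and 3) and bars for the mean ± SD of the groups of 3 libraries, cut at 0. For Sfrp4 the bleomycin points at 7.82 to 17.4 CPM lie under the PBS points at 83.9 to 277 CPM, while Wif1, Apcdd1 and Dkk2 overlap between treatments.

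Sfrp4 encodes a Frizzled-related protein of connective tissue. It had 134, 277 and 83.9 CPM in the stromal cells of the libraries labelled PBS 1, 2 and 3 and 7.82, 17.4 and 12.6 CPM in those labelled bleomycin 1, 2 and 3. Every PBS library was thus above every bleomycin library, which rest on 71 UMIs in all against 1625. The log2 change was -3.69 (SE 0.49, adjusted p = 0.0307 by edgeR's quasi-likelihood test with Benjamini-Hochberg adjustment), and -3.58 with the replicate number as a block (adjusted p = 0.00403), a fit that called 1203 genes against 361. The adjusted p was 0.148 without the library labelled bleomycin 1, 0.0703 without PBS 2, 0.0721 without bleomycin 3 and 0.0935 without the barcodes that libraries share, where the change was -4.18. Without the libraries labelled PBS 1 and PBS 3, whose SARA transcript goes against the label, the change was -4.47 (adjusted p = 0.0393). That fit rests on PBS 2 as the lone PBS library, with 781 cells of which 115 were stromal, 55.5% of its barcodes shared with other libraries and 190 CPM of the human ZFYVE9 entry, and the spread of PBS 2 is taken from the bleomycin libraries. Among the 4 libraries of the longer gene list the change was -3.98 (adjusted p = 0.0474). In the shorter list only 1 library stood in each group, with 83.9 CPM after PBS and 12.6 CPM after bleomycin.

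Sfrp1 had 184, 341 and 64.0 CPM in the libraries labelled PBS 1, 2 and 3 and 53.5, 56.0 and 48.2 CPM in those labelled bleomycin 1, 2 and 3. The PBS libraries spread widely and the bleomycin libraries little, and the groups did not overlap. In unassigned cells the order was the reverse, also without overlap, with 32.5, 46.4 and 16.1 CPM after PBS and 155, 138 and 98.8 CPM after bleomycin. There 10.3% of 9010 genes with a mean of at least 10 CPM were higher without overlap. Unassigned cells carried markers of several classes, on average 6058 CPM of stromal, 1381 of muscle, 1260 of keratinocyte and 521 of Schwann markers. The stromal log2 change of -1.84 (SE 0.50) had an adjusted p of 0.0757, which missed the threshold, while the fit with the replicate block gave -1.57 and passed it (adjusted p = 0.0422), as did 1203 of the 10526 genes under the block against 361 without it. The fit without the library labelled PBS 3 also passed (-2.23, adjusted p = 0.0306), with 184 genes past the threshold. Of 16 alternatives in all, 11 left Sfrp1 short of the threshold and the rest passed it, all with a negative change. Without both PBS 1 and PBS 3 it was -2.68 (adjusted p = 0.0606).

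Sfrp2, which is abundant in fibroblasts of many tissues, had 56.4, 152 and 42.8 CPM after PBS and 109, 30.5 and 29.7 CPM after bleomycin. The highest library of each group lay above the other 2 of both groups, and the groups overlapped (log2 change -0.44, SE 0.63, adjusted p = 0.699). Frzb was low, with 18.3, 0 and 5.76 CPM after PBS and 0.411, 1.45 and 0.451 CPM after bleomycin, where the 0 in the library labelled PBS 2 allows up to 4.11 CPM. These values overlap and were not tested.

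Wif1 (chr10:121033960-121100650, forward strand) encodes a secreted protein that binds WNT ligands directly. It had 215, 37.0 and 207 CPM in the libraries labelled PBS 1, 2 and 3 and 5.76, 111 and 50.5 CPM after bleomycin. The 2 highest libraries, PBS 1 and PBS 3, are those whose SARA transcript goes against the label, and the groups overlapped (log2 change -1.51, SE 0.88, adjusted p = 0.318). Without these 2 libraries the change turned to 0.56 (adjusted p = 0.855), and with a stricter marker gate, where 671 genes passed, it was -2.32 (adjusted p = 0.0460). Sostdc1 followed the same libraries in stromal cells, with 44.5, 1.37 and 54.9 CPM after PBS and 11.1, 0 and 21.2 CPM after bleomycin (log2 change -1.68, SE 0.96, adjusted p = 0.306), and overlapped between groups. With the replicate block its adjusted p was 0.0228, whereas without PBS 1 and PBS 3 its change turned to 2.99. The lone PBS library of that fit, PBS 2, held 1 stromal UMI of Sostdc1, and the 0 of bleomycin 2 allows up to 2.18 CPM. In unassigned cells Sostdc1 was higher after bleomycin without overlap, as were 10.3% of 9010 genes. It had 17.8, 56.3 and 41.1 CPM there after PBS and 57.7, 91.5 and 78.7 CPM after bleomycin.

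The Dickkopf genes had no change that passed the test, and neither did Sfrp2, Apcdd1 or Axin2. Without the libraries labelled PBS 1 and 3 the log2 changes were 0.63 for Dkk2, 0.90 for Dkk3, -1.37 for Sfrp2, -1.61 for Apcdd1 and -0.81 for Axin2 (adjusted p from 0.353 to 0.691). Dkk2 had 102, 98.7 and 121 CPM after PBS and 58.8, 145 and 254 CPM after bleomycin, so the bleomycin libraries held both the lowest and the highest value (log2 change 0.50, SE 0.44, adjusted p = 0.514). Dkk3 had 40.8, 26.0 and 51.6 CPM after PBS and 44.8, 62.5 and 37.8 CPM after bleomycin, with the groups interleaved (0.24, SE 0.30, adjusted p = 0.654). Axin2, the feedback gene that is often read as a measure of WNT activity, had 18.1, 30.2 and 24.7 CPM after PBS and 8.64, 30.5 and 14.0 CPM after bleomycin. These groups overlapped (-0.46, SE 0.45, adjusted p = 0.556).

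Apcdd1, which encodes a membrane-bound inhibitor of WNT signaling known from hair follicles, had 222, 248 and 9.67 CPM after PBS and 28.0, 206 and 14.4 CPM after bleomycin. High and low libraries occurred in both groups (log2 change -0.90, SE 1.15, adjusted p = 0.658). Its levels split instead by gene list: the 4 libraries with the longer list had 28.0 to 248 CPM in stromal cells and the 4 with the shorter list 2.27 to 14.4 CPM. In keratinocytes the values were 15.3 to 73.1 CPM against 2.52 to 4.56 CPM, but the 15.3 CPM of PBS 2 rests on 2 UMIs, where a count of 0 would allow 22.9 CPM, and the 18.6 CPM of bleomycin 1 on 4 UMIs. In leukocytes they were 0.461 to 1.56 CPM, from 3 to 17 UMIs a library, against 0.0290 to 0.0470 CPM, from 1 or 2 UMIs. No other member was without overlap between the lists in stromal cells, where 3.97% of 10007 genes with at least 10 CPM were. That share was 3.95% in keratinocytes and 15.2% in leukocytes. The gene list, the Cell Ranger version, the Xist and Ddx3y levels and the shared barcodes mark the same libraries, so they cannot be told apart.

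**Figure D3:**
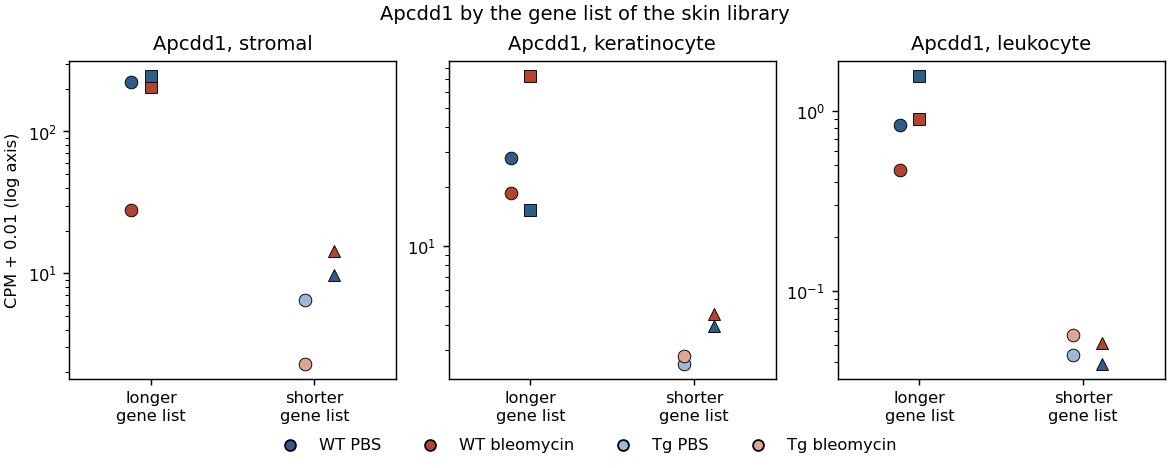
CPM of Apcdd1 plus 0.01 on a log axis (vertical) in stromal cells, keratinocytes and leukocytes of the 8 skin libraries, grouped by the gene list of the library (horizontal), with 1 point per library. In each of the 3 classes the 4 libraries of the longer list lie above the 4 libraries of the shorter list, for stromal cells from 28.0 CPM against at most 14.4 CPM.

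The cells behind these sums also differed between treatments. Stromal cells were 11.9% ± 4.15 of the cells kept after PBS and 4.63% ± 2.42 after bleomycin (SD, n = 3 libraries each, two-sided exact permutation p = 0.1, the smallest this design allows). Among stromal cells, those gated on Pi16, Dpp4 and 4 further markers (Pi16-high) were 32.9% ± 0.812 after PBS and 19.1% ± 7.38 after bleomycin, and those gated on Cthrc1, Postn and 4 further markers (Cthrc1-high) were 17.3% ± 3.27 and 35.2% ± 11.1 (exact permutation p = 0.1 for each, the smallest possible). Those gated on Crabp1, Corin and 4 further markers (Crabp1-high) were 8.05% ± 6.58 and 4.20% ± 5.54 (exact permutation p = 0.6). What part these shares have in the stromal sums was not tested.

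The members divided among these subsets. In the 3 PBS libraries together, Pi16-high cells were 33.0% of stromal cells and held 77.3% of the stromal Sfrp4 UMIs (1256 of 1625), 60.3% of the Sfrp1 UMIs and 56.0% of the Sfrp2 UMIs. Without the library labelled PBS 1, Pi16-high cells were 32.3% of stromal cells and held 64.8%, 50.9% and 63.3% of these UMIs. Crabp1-high cells were 11.0% of stromal cells and held 95.2% of the Sostdc1 UMIs (576 of 605), 58.1% of Frzb, 46.8% of Wif1 and 37.2% of Apcdd1, but 1 Sfrp4 UMI. The library labelled PBS 1 held 84 of these 111 Crabp1-high cells. Without it they were 6.05% of stromal cells (27 of 446) and held 94.0% of the Sostdc1, 82.1% of the Frzb (23 of 28), 48.1% of the Wif1 and 6.58% of the Apcdd1 UMIs (15 of 228). Dkk2 and Dkk3 were spread more evenly, with 24.0% and 19.2% of their UMIs in Pi16-high cells, or 31.0% and 25.9% without PBS 1. Of the stromal cells with Sfrp4, 57 of 115, 11 of 19 and 31 of 49 also held Sfrp1 in the libraries labelled PBS 1, 2 and 3, against 2 of 9, 2 of 10 and 1 of 10 in those labelled bleomycin 1, 2 and 3. The SARATg libraries had 82 of 103 such cells after PBS and 5 of 67 after bleomycin. Over all stromal cells the share with Sfrp1 overlapped between treatments, since PBS 2 lay below bleomycin 1 and 3. Sfrp1 was in 200 of 565, 23 of 115 and 112 of 331 cells of PBS 1, 2 and 3. In bleomycin 1, 2 and 3 it was in 24 of 118, 20 of 141 and 32 of 124 cells. In SARATg the counts were 447 of 924 after PBS and 76 of 431 after bleomycin. Of the cells with Sostdc1, 33 of 36 also held Wif1 in PBS 1, 14 of 18 in PBS 3, 12 of 18 in bleomycin 3 and, in SARATg, 6 of 13 after PBS and 16 of 21 after bleomycin, but 0 of 6 in bleomycin 1 and 0 of 1 in PBS 2, and bleomycin 2 had no cell with Sostdc1. Sfrp4 and Wif1 met in at most 5 cells of any library. Cells with more UMIs show more genes, and these counts were not set to 1 depth. These subsets were gated on few cells, so their levels are given without a test.

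**Figure D4:**
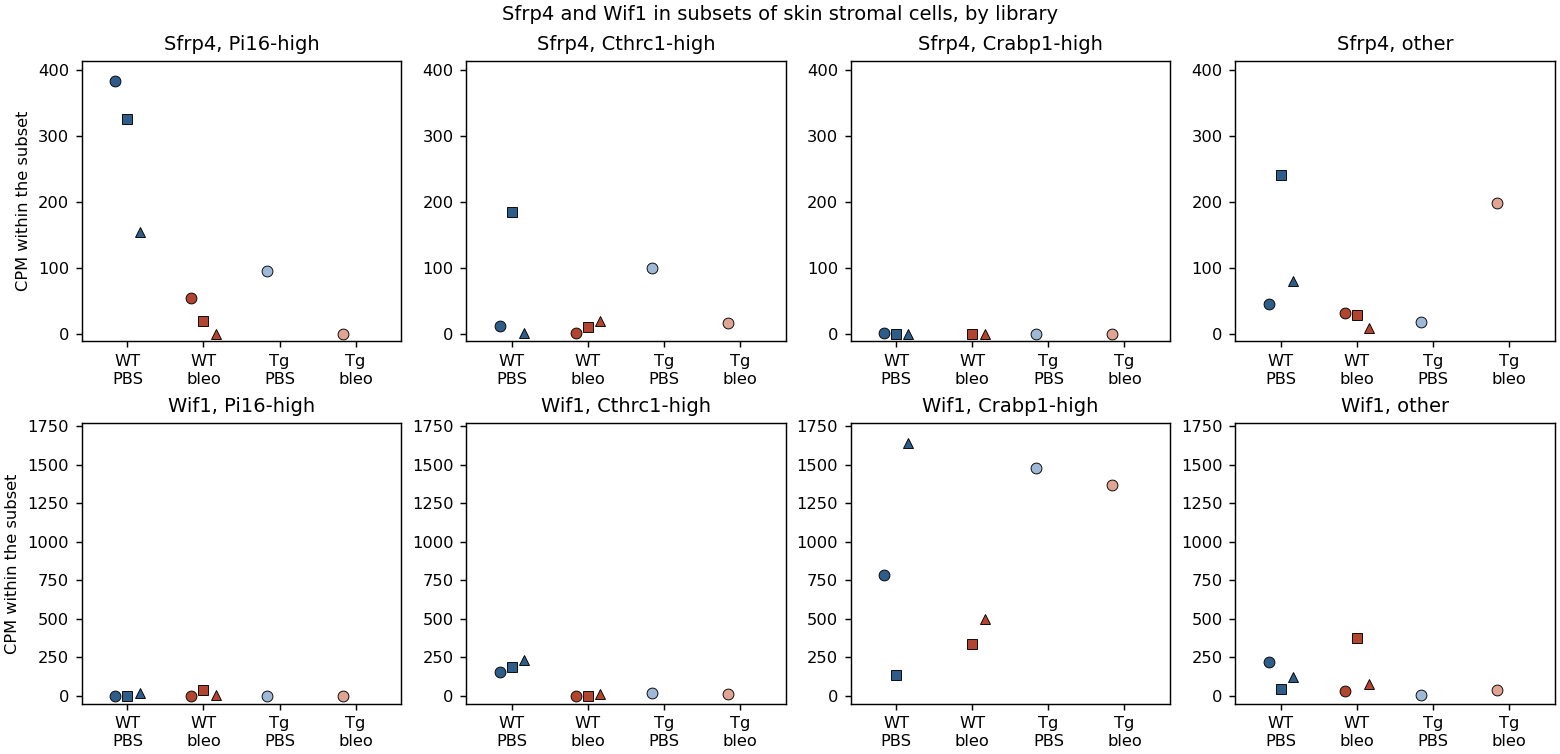
CPM of Sfrp4 (upper row) and Wif1 (lower row) in the Pi16-high, Cthrc1-high, Crabp1-high and other skin stromal cells (panels) by group (horizontal axis, WT for SARAWT, Tg for SARATg and bleo for bleomycin), with 1 point per library (circle, square and triangle for replicates 1, 2 and 3) and no mean. Sfrp4 reached 155 to 383 CPM in the Pi16-high cells of the SARAWT PBS libraries and at most 54.0 CPM in those of the SARAWT bleomycin libraries, and Wif1 reached 1637 CPM in the Crabp1-high cells of the library labelled SARAWT PBS 3.

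Within Pi16-high cells Sfrp4 had 383, 325 and 155 CPM in the libraries labelled PBS 1, 2 and 3 (190, 38 and 106 cells) and 54.0, 18.9 and 0 CPM in those labelled bleomycin 1, 2 and 3 (18, 39 and 18 cells). The 0 allows up to 9.07 CPM, and the bleomycin values rest on 5, 8 and 0 UMIs. The groups did not overlap, and in this subset 6.05% of 8039 genes were lower after bleomycin without overlap. In Cthrc1-high cells Sfrp4 overlapped, with 12.7, 185 and 1.81 CPM after PBS and 1.02, 10.2 and 19.0 CPM after bleomycin. Sfrp1 in Pi16-high cells had 397, 369 and 82.1 CPM after PBS and 227, 28.4 and 106 CPM after bleomycin, which overlapped.

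Wif1 in Cthrc1-high cells had 158, 185 and 235 CPM after PBS (77, 21 and 66 cells, of which the library labelled PBS 2 gave 15 UMIs) and 1.02, 1.69 and 15.7 CPM after bleomycin (52, 32 and 48 cells). These groups did not overlap, as was so for 15.3% of 8217 genes that were lower after bleomycin in this subset, and the SARATg PBS library, at 18.4 CPM, lay near the bleomycin libraries. Over all stromal cells the groups overlapped. In Crabp1-high cells of the libraries labelled PBS 1 and 3 (84 and 25 cells) Wif1 had 782 and 1637 CPM and in the bleomycin library 3 (13 cells) 498 CPM, while the remaining SARAWT libraries had at most 3 such cells. Sostdc1 in these 3 libraries had 339, 833 and 222 CPM.

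SARATg skin had 1 library per treatment, so its values carry exact 95% Poisson intervals, which cover counting error only, and no test. Sfrp4 in stromal cells was 65.9 CPM (62.1 to 69.8) in the SARATg PBS library and 56.2 CPM (52.4 to 60.2) in the SARATg bleomycin library. The latter lay above all 3 SARAWT bleomycin libraries, the highest of which had 17.4 CPM. Of these, bleomycin 1 and 2 had the longer gene list and 441 and 520 CPM of Xist over all cells. Only bleomycin 3, at 12.6 CPM of Sfrp4, had the gene list and low Xist (0.642 CPM) of the SARATg bleomycin library (0.145 CPM). The subsets that held Sfrp4 differed. It had 94.9 CPM in 504 Pi16-high cells of the SARATg PBS library. In the SARATg bleomycin library the 9 Pi16-high cells had no UMI, and the stromal cells in none of the 3 subsets had 198 CPM. Of its 817 Sfrp4 UMIs, 76.9% came from 10 cells.

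Sfrp1 was 84.9 CPM (80.6 to 89.4) and 25.8 CPM (23.3 to 28.5) in the same 2 libraries. Dkk2 was 25.9 CPM (23.6 to 28.4) after PBS, under every SARAWT library, and 133 CPM (127 to 139) after bleomycin, inside the SARAWT range. Wif1 was 12.6 CPM (11.0 to 14.3) and 53.5 CPM (49.8 to 57.3), and Axin2 was 24.7 CPM (22.4 to 27.2) and 6.19 CPM (4.98 to 7.61). The SARATg PBS library held 924 stromal cells, the most of any library. Crabp1-high cells of these libraries (11 and 45 cells) had 1475 and 1368 CPM of Wif1.

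In sums over all cells of a SARAWT skin library, fewer cells of a type and less RNA per cell cannot be told apart, and the members differ in the classes that hold their UMIs, as given above. Dkk2, for example, had a log2 change of -0.90 over all cells and of 0.50 within stromal cells, and neither passed the test. None of the 15334 genes tested passed the threshold with edgeR (0%; 2802 at an unadjusted p under 0.05, and 1321 with DESeq2). Sfrp4 had 31.0, 62.7 and 8.65 CPM after PBS and 0.818, 1.15 and 0.709 CPM after bleomycin, without overlap, and its log2 change was -5.07 (SE 0.73, adjusted p = 0.0523), or -4.69 with the replicate block (adjusted p = 0.0183), where 584 genes passed. Among the 4 libraries of the longer list the change was -5.34 (adjusted p = 0.0284, 782 genes passed), and without PBS 1 and PBS 3 it was -5.99 (adjusted p = 0.0391, 19 genes passed). Dkk2, Dkk3, Wif1 and Axin2 were also lower in every bleomycin library than in every PBS library, as were 17.4% of all genes tested (6.28% were higher without overlap, no member among them), and their log2 changes lay between -2.66 and -0.61 with adjusted p from 0.144 to 0.266. The remaining 5 members overlapped between groups, with log2 changes of -1.12 for Sfrp1, -1.59 for Sfrp2, -2.92 for Frzb, -2.24 for Apcdd1 and 0.18 for Sostdc1 (adjusted p from 0.202 to 0.802). Without PBS 1 and PBS 3, the log2 changes of the 8 members other than Sfrp4 that could be fitted lay between -2.86 and 0.53 (adjusted p from 0.153 to 0.820). The mean share of stromal cells in the same libraries was 11.9% after PBS and 4.63% after bleomycin.

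Keratinocytes gave no call either among 6218 genes (0%; 716 at an unadjusted p under 0.05 and 47 with DESeq2), and 5 of the 10 members passed the filter. Sostdc1, which marks hair follicle epithelium among other sites, had 47.1, 68.8 and 33.3 CPM in the libraries labelled PBS 1, 2 and 3 and 13.9, 129 and 181 CPM after bleomycin. The bleomycin libraries again held the lowest and the highest values (log2 change 1.48, SE 0.59, adjusted p = 0.376). The value of 13.9 CPM in the library labelled bleomycin 1 rests on 3 UMIs in 31 cells, and that of PBS 2 on 9 UMIs in 18 cells.

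Sfrp1 in keratinocytes had 103, 76.4 and 38.1 CPM after PBS and 23.2, 30.1 and 44.0 CPM after bleomycin, which overlapped through the libraries numbered 3 (-0.92, SE 0.42, adjusted p = 0.434). Axin2 had 34.0, 53.5 and 31.0 CPM after PBS and 27.8, 38.7 and 54.7 CPM after bleomycin, with the groups interleaved (0.37, SE 0.34, adjusted p = 0.740). Dkk3 and Apcdd1, the other members tested, had adjusted p of 0.725 and 0.664. Without the libraries labelled PBS 1 and 3 the log2 changes were 0.85 for Sostdc1, -1.04 for Sfrp1, -0.22 for Axin2, -0.43 for Dkk3 and 1.14 for Apcdd1 (adjusted p from 0.814 to 0.933). No member was without overlap, where 11.0% of genes were lower and 5.60% higher without overlap.

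Schwann cells had no planned fit, and their values are a description. Sostdc1 in them was 444 and 677 CPM in the libraries labelled PBS 1 and 3 and 684, 134 and 144 CPM in bleomycin 1, 2 and 3, which overlapped. It was 554 CPM (461 to 659) in the SARATg PBS library and 220 CPM (171 to 278) in the SARATg bleomycin library. Sfrp1 lay between 104 and 312 CPM in the 7 libraries with at least 10 Schwann cells.

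The kidney comparison asked what AA changed in SARAWT mice. No gene passed the threshold in any of its 5 fits, so the background was 0% in each. At an unadjusted p under 0.05 and with DESeq2, respectively, the counts were 1213 and 80 over all cells, 887 and 37 in the proximal tubule, 399 and 6 in the thick ascending limb, 920 and 25 in the distal convoluted tubule, and 221 and 13 in endothelial cells. The cells sorted differed between libraries: leukocytes were 8.89% and 12.7% of cells in the libraries labelled vehicle 1 and 2, but 73.9% in vehicle 3 and 83.4%, 55.3% and 78.0% in AA 1, 2 and 3.

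**Figure D5:**
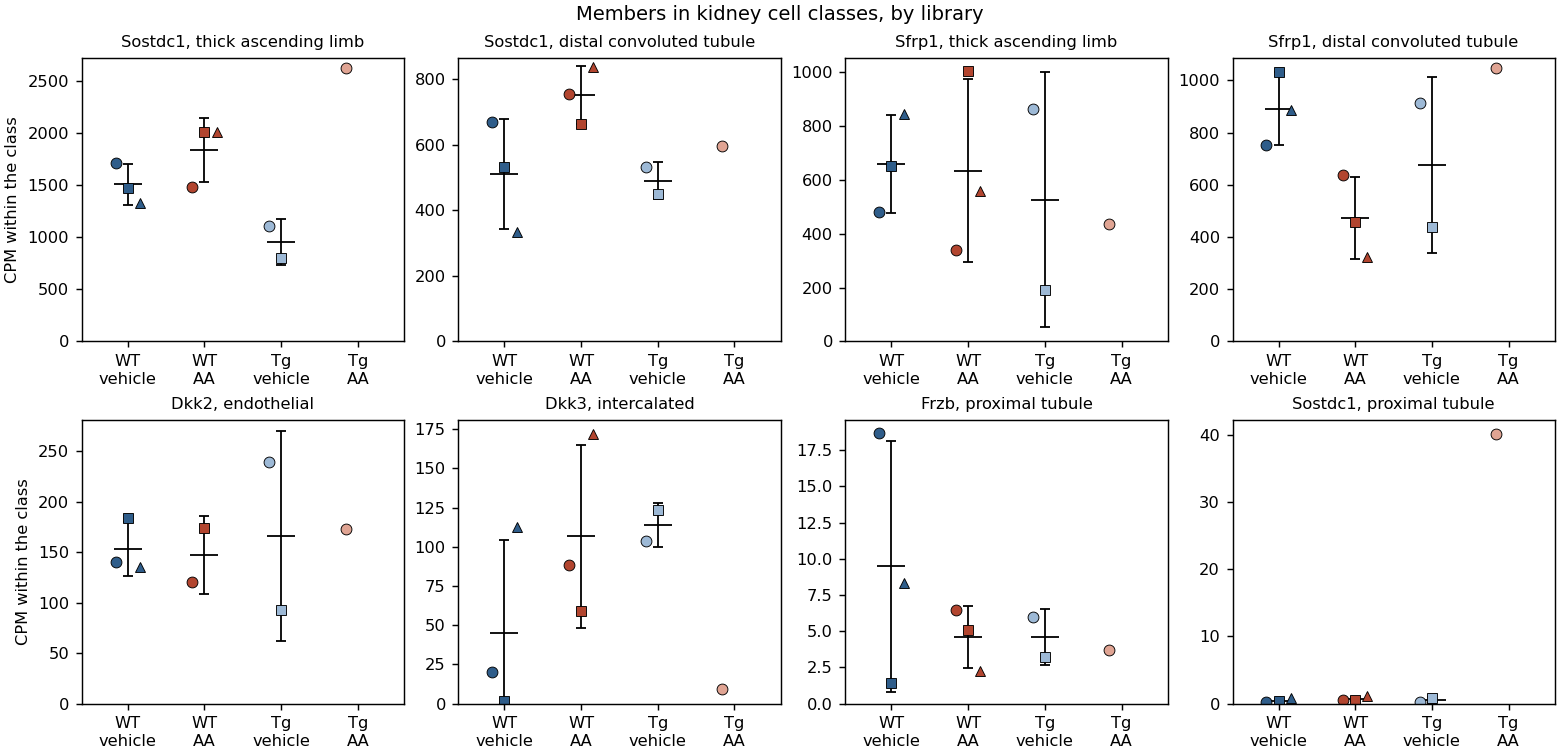
CPM of 5 of the genes in kidney cell classes (8 panels, vertical axes in CPM) by group (horizontal axis, WT for SARAWT and Tg for SARATg), with 1 point per library (circle, square and triangle for replicates 1, 2 and 3) and bars for the mean ± SD of groups of more than 1 library, cut at 0. Sfrp1 in the distal convoluted tubule lay at 754 to 1033 CPM in the vehicle and 322 to 637 CPM in the AA libraries of SARAWT mice, and Sostdc1 in the proximal tubule stood at 40.3 CPM in the library labelled SARATg AA 1 alone.

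In the distal convoluted tubule, Sfrp1 had 754, 1033 and 887 CPM in the libraries labelled vehicle 1, 2 and 3 and 637, 458 and 322 CPM in those labelled AA 1, 2 and 3. All vehicle libraries stood above all AA libraries, as did 9.65% of the 6143 genes tested, and the log2 change of -0.88 (SE 0.24) did not pass the test (adjusted p = 0.204). The SARATg libraries spanned both ranges, with 914 and 439 CPM after vehicle and 1049 CPM (994 to 1107) in the library labelled SARATg AA 1, the highest of all 9, whose Zfyve9 was at the SARAWT level. For SARAWT mice DESeq2 gave -0.87 with an adjusted p of 0.0378. Without AA 1, the SARAWT library with high Zfyve9, the log2 change was -1.12 (adjusted p = 0.204), and without vehicle 1 and 2, the libraries with few leukocytes, it was -1.05 (adjusted p = 0.0965). The vehicle libraries held 176, 250 and 39 cells of this segment and the AA libraries 41, 43 and 53.

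Sostdc1 in the same segment had 669, 530 and 335 CPM after vehicle and 755, 661 and 836 CPM after AA, and the groups overlapped by 1 library (log2 change 0.63, SE 0.21, adjusted p = 0.236). In the thick ascending limb it had 1710, 1474 and 1329 CPM after vehicle and 1479, 2010 and 2010 CPM after AA, again overlapping by 1 library (0.38, SE 0.21, adjusted p = 0.618). Sfrp1 in the thick ascending limb had 479, 651 and 845 CPM after vehicle and 340, 1005 and 558 CPM after AA, with AA libraries at both ends (-0.03, SE 0.36, adjusted p = 0.997). In this segment no member was without overlap, where 3.93% of genes were higher and 10.2% lower, and in the distal convoluted tubule 7.13% of genes were higher without overlap and no member was. The segment held 24 to 94 cells per vehicle library and 13 to 64 per AA library.

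Dkk2 in kidney endothelial cells had 141, 184 and 136 CPM after vehicle and 120 and 174 CPM in the libraries labelled AA 1 and 2, since AA 3 held 1 endothelial cell and did not enter the fit. The groups overlapped, where 12.8% of genes were lower and 9.07% higher without overlap (-0.13, SE 0.35, adjusted p = 1.0). Frzb in the proximal tubule had 18.7, 1.42 and 8.33 CPM after vehicle and 6.46, 5.08 and 2.27 CPM after AA, so vehicle libraries were both highest and lowest (-1.23, SE 0.90, adjusted p = 0.610). The library labelled vehicle 1 alone gave 2245 of its UMIs, found in 1672 of 9711 cells. Dkk3 in the proximal tubule was low, with 0.0665, 1.17 and 1.89 CPM after vehicle and 3.43, 2.54 and 3.48 CPM after AA, higher in each AA library, as were 11.1% of the 12291 genes tested (2.56% lower) (1.52, SE 0.99, adjusted p = 0.585). Dkk2 there had a log2 change of 0.46 (SE 0.52, adjusted p = 0.721).

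Dkk3 in intercalated cells had 20.1, 1.49 and 113 CPM after vehicle and 88.4, 59.2 and 172 CPM after AA, which overlapped through vehicle 3. The 2 SARATg vehicle libraries had 104 and 124 CPM and the library labelled SARATg AA 1 had 9.29 CPM (4.64 to 16.6). Intercalated cells had no planned fit. Without the library labelled AA 1, the log2 changes within classes were 0.53 for Sostdc1 and 0.29 for Sfrp1 in the thick ascending limb, 0.67 for Sostdc1 in the distal convoluted tubule, 0.077 for Dkk2 in endothelial cells, and -1.51 for Frzb, 1.45 for Dkk3 and 0.52 for Dkk2 in the proximal tubule (adjusted p from 0.310 to 0.991).

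Over all kidney cells Axin2 had 0.351, 0.830 and 1.29 CPM after vehicle and 2.56, 4.97 and 6.15 CPM after AA, without overlap, as did Dkk3 with 0.269, 1.47 and 2.26 CPM and 3.44, 3.22 and 4.77 CPM. Of all 16055 genes tested, 11.4% were higher after AA without overlap and 3.56% lower, and no member was lower. The log2 change of Axin2 was 2.38 (SE 0.59, adjusted p = 0.481), with an adjusted p of 0.0184 in DESeq2, where 80 genes passed. Without the library labelled vehicle 3 it was 0.0303, in a fit where 3629 genes passed and the vehicle libraries left held 8.89% and 12.7% leukocytes against 55.3% to 83.4% in the AA libraries. In kidney leukocytes, which held most Axin2 UMIs and varied between these libraries as given above, Axin2 had 6.05, 7.87 and 1.83 CPM after vehicle and 3.1, 10.9 and 7.73 CPM after AA, which overlapped. The other 5 members tested over all kidney cells overlapped between treatments, with log2 changes of -0.82 for Dkk2, -0.57 for Sfrp1, 1.11 for Sfrp2, -2.35 for Frzb and 0.68 for Sostdc1 (adjusted p from 0.481 to 0.634), and Sfrp4, Wif1 and Apcdd1 did not pass the filter. Without the library labelled AA 1, the log2 change was 2.67 for Axin2 and 1.52 for Dkk3, and the adjusted p of the 7 members lay between 0.766 and 0.862.

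SARATg vehicle kidneys (2 libraries) were compared with the same 3 SARAWT vehicle libraries over all cells, and no gene of 16424 passed (0%; 411 at an unadjusted p under 0.05 and 87 with DESeq2). Dkk2 had 14.4 and 6.97 CPM in the SARATg libraries and 3.57, 2.16 and 4.86 CPM in the SARAWT libraries, and Axin2 had 1.97 and 1.70 CPM against 0.351, 0.830 and 1.29 CPM. Both were higher without overlap, as were 8.73% of all genes (5.53% were lower, no member among them), with log2 changes of 1.51 (SE 0.56) and 1.11 (SE 0.65) and adjusted p of 1.0. The other 6 members tested had log2 changes of 0.51 for Dkk3, -0.11 for Sfrp1, 2.10 for Sfrp2, 1.20 for Sfrp4, -1.37 for Frzb and 0.45 for Sostdc1, with the same adjusted p. Endothelial cells held 25.8% and proximal tubule cells 51.1% of the Dkk2 UMIs of the SARAWT vehicle libraries, or 36.3% and 30.0% without the library labelled vehicle 1. Endothelial cells were 730 and 406 in the SARATg libraries and 152, 109 and 164 in the SARAWT libraries, and within them Dkk2 had 240 and 92.3 CPM against 141, 184 and 136 CPM, which overlapped.

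The library labelled SARATg AA 1 had 2621 CPM of Sostdc1 in the thick ascending limb (2544 to 2701), above the 8 other kidney libraries, and 597 CPM (555 to 641) in the distal convoluted tubule, within them. It also had 40.3 CPM (36.7 to 44.0) in proximal tubule cells, from 121 of 1233 cells, against at most 1.06 CPM in each other library. In the same library Sostdc1 in leukocytes (4.80 CPM against at most 1.73 CPM) and, in the proximal tubule, Sfrp1 (3.00 CPM against at most 0.365 CPM) and Dkk2 (13.3 CPM against at most 5.75 CPM) were also the highest. The part of RNA shared between droplets in these values was not tested. This library had the most thick ascending limb cells, 215. It also went against its label in Zfyve9, as given above, and its Xist level was 1322 CPM, against 1329 CPM in the kidney library labelled SARAWT vehicle 2 and at most 0.478 CPM in the other 7.

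The rest of the pathway was described by 86 further WNT genes. They were ligands, receptors, intracellular and nuclear components, other antagonists and other feedback or target genes. A further class held the R-spondins together with the receptor genes Lgr4, Lgr5 and Lgr6. In skin stromal cells 59 of them were tested, 6 fell and 1 rose (of all genes tested 1.59% fell and 1.84% rose), the median log2 change was -0.71 against -0.04 over all genes, and 52 of the 59 had a negative sign. By class, 1 of 7 ligands, 2 of 12 receptors, 1 of 12 nuclear components and 3 of 8 feedback or target genes passed the test. None passed among 4 genes of the R-spondin and Lgr class, 10 intracellular components, 4 other antagonists and 2 genes of ligand processing. The same list gave no call in the other 8 fits, with a median of -0.76 over all skin cells (71 tested), -0.15 in keratinocytes (37 tested) and, after AA, -0.07 over all kidney cells (67 tested), 0.22 in the proximal tubule (43), -0.15 in the thick ascending limb (15), -0.09 in the distal convoluted tubule (21) and -0.26 in endothelial cells (25). In SARATg against SARAWT vehicle kidneys the median was 0.15 (69 tested), against -0.12 over all genes.

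Wnt11, a ligand of mostly beta-catenin-independent signaling, had 36.3, 34.3 and 21.0 CPM in stromal cells after PBS and 11.1, 8.72 and 9.91 CPM after bleomycin (log2 change -1.55, SE 0.27, adjusted p = 0.0341). Fzd7, a Frizzled receptor, had 29.2, 21.9 and 19.1 CPM and then 6.17, 8.72 and 11.3 CPM (-1.41, SE 0.29, adjusted p = 0.0442), and the co-receptor gene Lrp6 had 115, 123 and 87.8 CPM and then 41.1, 62.5 and 50.9 CPM (-1.05, SE 0.21, adjusted p = 0.0429). Dact1, which binds Dishevelled, had 63.6, 69.9 and 47.1 CPM and then 21.4, 26.2 and 17.1 CPM (-1.45, SE 0.23, adjusted p = 0.0326). In all 4 genes every PBS library lay above every bleomycin library, as in 22 of the 59 genes of the list and 15.4% of all genes tested, while 1 of the 59 and 15.0% of all genes were higher after bleomycin without overlap. Ccnd1, which encodes cyclin D1 and responds to many growth signals besides WNT, had 121, 79.5 and 118 CPM after PBS and 463, 363 and 368 CPM after bleomycin (1.91, SE 0.24, adjusted p = 0.0292), the reverse order. The remaining calls were Bcl9l (-0.99, adjusted p = 0.0414) and Dact2 (-4.48, adjusted p = 0.0319), named here after their values were seen. Without the libraries labelled PBS 1 and PBS 3, only 3 genes of the whole table passed.

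For each member, the 3 genes with the most similar levels over the 17 class means of both tissues were found by Pearson's r of log2(CPM + 1), which is a description across classes that share libraries and depth. Sfrp4 was closest to Hhipl1 (r = 0.945), Cdh11 (0.939) and Fbln1 (0.912), and Wif1 to Duox1 (0.922), Fbln1 (0.912) and Sfrp4 itself (0.911). Sfrp2 was closest to Gm26771 (0.974), an antisense gene that overlaps it, Ptgis (0.967) and Prdm6 (0.939). Apcdd1 lay near Gli1 (0.896), Postn (0.887) and Igsf10 (0.881), and Dkk2 near Dchs1 (0.860), Gm4951 (0.848) and Meis2 (0.826).

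The tubule pair shared a neighbour: Sostdc1 was closest to Gal3st1 (0.917), Vpreb1 (0.902) and Gm4419 (0.878), and Sfrp1 to Gm4419 (0.829), Shank1 (0.788) and Shd (0.771). Frzb was closest to Gm19935 (0.894), Prokr1 (0.868) and Lrrtm1 (0.865), Dkk3 to Rorb (0.839), Rnase1 (0.765) and Gpr37 (0.756), and Axin2 to Rasa3 (0.844), Kansl1 (0.835) and Hmcn1 (0.834).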

How the data were processed

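Droplet-based 3' single-cell RNA libraries of sorted GFP-positive cells were analysed, 8 from skin and 9 from kidney. The authors deposited whole-number UMI counts per gene and cell barcode, not normalized, and the headers name Cell Ranger 4.0.0, 3.1.0 or 3.0.2. The submitters' processing notes name mm10, Cell Ranger 3.0.2 and Seurat 2.3.4. Positions are from GENCODE vM21 on GRCm38.

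From these counts, barcodes under 200 genes or over 20% (skin) or 50% (kidney) mitochondrial UMIs were dropped. A cell joined a class with at least 3 of its 10 markers and a runner-up class with at most 50% as many. Cells whose runner-up class had more than that stayed unassigned, and no doublet caller was run. Stromal subsets needed 2 of 6 markers. UMIs were summed per library and class (at least 10 cells) over the 30406 genes shared by both gene lists and tested with edgeR 4.0.16 in R 4.3.3 (filterByExpr, TMM, two-sided quasi-likelihood F test, Benjamini-Hochberg adjustment over all genes tested, threshold 0.05). DESeq2 1.42.0, RLE size factors, no filter, the replicate block, stricter cell and marker gates, shared barcodes, gene lists and each library left out were alternatives. Fits that leave 1 library in a group assume that it varies like the other group. Cell shares were compared by exact permutation over libraries. Tables were handled in pandas 2.3.3 and scipy 1.17.1 under Python 3.11.15, figures drawn in matplotlib 3.10.9, and the fits were tested on simulated data.

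Replicate numbers in the labels gave the block. After removal of group means, all 3 same-numbered SARAWT pairs correlated over all skin cells (r = 0.257, 0.129 and 0.527). They did so in stromal cells too (0.201, 0.248 and 0.352), where every pair of unlike numbers had a negative r (-0.24 to -0.00529). Deviations within a group cancel by construction, so negative values in unlike pairs follow in part from positive values in same-numbered pairs. Over all skin cells PBS 1 with bleomycin 2 (0.187) and PBS 2 with bleomycin 1 (0.213) lay above PBS 2 with bleomycin 2. There the replicate number and the gene list cannot be told apart. Same-numbered libraries also share the gene list.

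The members, marker lists and pathway list were chosen with earlier results of these data known. All members that could be tested are given in each comparison. Of the pathway list, up to 4 genes per direction past the threshold, with the largest change and a mean of at least 10 CPM, are named. Skin mural cells (3 against 0 libraries) and kidney principal cells (2 against 1) could not be tested. The libraries with fewest cells of a class limit the precision, and the Poisson intervals and the level that a count of 0 allows (3 counts) cover counting error only.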

Additional observations from a re-analysis of the deposited data

How the results depend on the processing

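Of the member values recomputed under the alternatives, 605 kept their direction and side of the threshold, 20 newly passed it, 4 no longer did and 23 reversed. The cause was not tested. Wif1 over all skin cells stayed short of the threshold in 14 of 15 alternatives and Sostdc1 in keratinocytes in 15 of 16. Sfrp1 in the distal convoluted tubule did so in 11 of 13. The remaining alternatives for these 3 values passed it in the same direction. Genes past the threshold in skin stromal cells (361) came to 909 with DESeq2, 1181 without the filter, 1203 with the replicate block, 671 with the stricter gate, 4 without shared barcodes, 69 within the longer gene list, 3 without PBS 1 and 3, and 0 to 184 with 1 library left out. Over all skin cells (0) there were 1321 with DESeq2, 360 without the filter, 584 with the block, 831 with gene list as covariate, 782 within the longer list, 19 without PBS 1 and 3 and 0 to 962 with 1 library left out; in keratinocytes (0) 47, 459, 55 and 32 in the first 4 of these, 17 without shared barcodes and 0 to 32. In kidney (0 in each), DESeq2 gave 80 over all cells, 37 in the proximal tubule, 6 in the thick ascending limb, 25 in the distal convoluted tubule, 13 in endothelial cells and 87 for SARATg; leaving out 1 library gave 0 to 3629, 0 to 172, 0 to 79, 0 to 409, 0 to 21 and 0 to 0. No filter gave 122, 361 and 90 in the thick ascending limb, distal convoluted tubule and endothelial cells, omission of vehicle 1 and 2 gave 4, 30 and 3, the stricter gate 17 in the thick ascending limb and the block 15 in endothelial cells. Log2 changes that reversed were, in stromal cells, Sfrp2 (0.054, stricter gate), Wif1 (0.56) and Sostdc1 (2.99) without PBS 1 and 3 and Apcdd1 (0.25) without shared barcodes; in keratinocytes Dkk3 (-0.43) and Axin2 (-0.22) without PBS 1 and 3 and Axin2 (-0.071) in the longer list; in kidney Dkk2 in the proximal tubule (-0.10, without vehicle 1 and 2), Sfrp1 in the thick ascending limb (0.043, without shared barcodes) and Sostdc1 for SARATg (-0.53, stricter cell filter). The within-list, PBS 1 and 3 and vehicle 1 and 2 alternatives were chosen after seeing the data. The block changed 3 calls of members, given above, and no other. In keratinocytes same-numbered pairs had r = 0.00831, 0.127 and 0.298, and PBS 1 with bleomycin 2 (0.0784) lay above the first of them. Numbers did not pair libraries in kidney. With 1 library left out, the log2 change changed sign for Sostdc1 over all skin cells (-0.12 to 0.41), Dkk2 (-0.056 to 0.91) and Sfrp2 (-1.38 to 0.25) in stromal cells, Apcdd1 in keratinocytes (-0.54 to 1.87), Sfrp2 (-0.64 to 1.79) and Sostdc1 (-0.0043 to 1.06) over all kidney cells, Sfrp1 in the thick ascending limb (-0.40 to 0.29), Dkk2 in kidney endothelial cells (-0.24 to 0.077) and, for SARATg, Sfrp1 (-0.34 to 0.45), Sfrp2 (-0.35 to 2.95), Sfrp4 (-5.80 to 2.18) and Frzb (-1.92 to 0.52).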
